A study of Mus musculus with 16 samples.

Results

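The transcripts described here are those of 37 genes of the autophagy machinery and of the TFEB family of transcription factors, measured in the cerebellum of young mice with and without Npc1. The 37 genes were fixed by name and looked up among the gene names of the Agilent arrays, under their old and current symbols, with control spots left out and every probe of a gene taken. Of the 37 genes, 36 had at least 1 probe, 71 probes in all, and 35 were measured above background and tested, out of 17983 tested genes among 27670 gene names on the arrays. Atg9a, the membrane carrier of the pathway, matched no probe name, and the only probe of Pik3r4, the regulatory subunit of the class III PI3-kinase, was well above background on none of the 8 arrays.

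Whole cerebella were taken from 8 mice, 4 Npc1-/- and 4 Npc1+/+ (wild type), at 3 weeks of age. The mice came from heterozygous breeders of the strain Npc1 (BALB/cNctr-Npc1m1N/J) on a BALB/c background, and the mutants were bred in house. Every cell of a mutant animal lacked the functional gene, and no animal was treated. RNA (500 ng per array) was labelled with Cy3 and hybridised to 1-colour Agilent arrays, 4 per genotype, and the labels do not state which mouse lies on which array. If an array does not stand for a mouse of its own, p-values measure the spread between arrays only. A further 8 arrays of the study, on an Illumina platform, were not used, because their probes carry no gene names in the table.

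Autophagy encloses cytoplasm, damaged organelles or aggregates in a double membrane that then fuses with a lysosome. The ULK kinases start the process, the class III PI3-kinase complex marks the membrane with PI3P, WIPI proteins read that lipid, and the ATG12 and ATG8 conjugation enzymes attach ATG8 proteins (the LC3 and GABARAP families) to it. Cargo receptors such as p62 bind the ATG8 proteins, and RAB7, the HOPS tethering complex and syntaxin 17 bring about the fusion. TFEB, TFE3 and MITF are basic helix-loop-helix factors of the MiT/TFE family, which move to the nucleus when lysosomes are stressed or mTORC1 is inactive and bind E-box sequences near many lysosomal and some autophagy genes. NPC1 moves cholesterol out of lysosomes, and neurons without it accumulate cholesterol and autophagic vacuoles.

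Because the MiT/TFE factors bind an E-box, the members' promoters were searched for it, and the stretches shown here are those of the 4 members that hold the longer form of the site. RefSeq promoter windows of GRCm38.p6 (250 bases before to 50 after the start site) were at hand for 30 of the 37 members. The capitals mark TCACGTG or its other strand, CACGTGA, the core of the site known for TFEB, and each line reads 5′ to 3′ on the strand of the gene.
Vps16, chr2:130424260-130424319, plus strand: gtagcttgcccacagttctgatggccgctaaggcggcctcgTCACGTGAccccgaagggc
Vps33a, chr5:123573016-123573075, minus strand: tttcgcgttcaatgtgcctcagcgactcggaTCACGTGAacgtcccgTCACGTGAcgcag
Atg3, chr16:45158719-45158778, plus strand: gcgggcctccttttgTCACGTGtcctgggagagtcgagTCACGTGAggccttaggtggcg
Atg7, chr6:114670946-114671005, plus strand: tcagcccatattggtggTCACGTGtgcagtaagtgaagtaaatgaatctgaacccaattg
Vps33a and Atg3 hold the letters at 2 places each. These are matches of letters in a window, not measured binding sites.

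In the Npc1-/- cerebellum, no tested member of the autophagy machinery or of the TFEB family passed the threshold. Of the 35 tested members, 0 had an adjusted p under 0.05 in limma's test across all genes, against 138 of the 17983 genes tested (0.767%), of which 132 were higher (0.734%) and 6 lower (0.0334%) in Npc1-/- mice. The count at an unadjusted p under 0.05 was also 0, where 7.4% of all genes stood, and the 2 groups of 4 arrays overlapped for every tested member, whereas they did not for 4.92% of all genes. The log2 fold changes, Npc1-/- minus wild type, ran from -0.22 for Atg3 to 0.13 for Sqstm1.

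The members' differences were small in size, and the arrays bounded them. Read by its brightest probe, every one of the 35 tested members had a 95% interval within a 1.5-fold change in either direction. That of 20 members lay within 1.3-fold, whereas 65.7% of all genes had an interval within 1.5-fold. Some dimmer probes of members had wider intervals. They reached a 2.96-fold level for Atg7, 2.81-fold for Ambra1 and, downwards, 0.516-fold for Vps18. The intervals are per gene or probe, for the main processing described below, and not widened for their number. The median size of the change, sign ignored, was 0.077 on the log2 scale among the members and 0.130 over all genes, and 29.7% of all genes changed by more, in either direction, than the member with the largest difference. Replicates also lay closer for the members than over all genes. Their median standard deviation was 0.14 in Npc1-/- and 0.16 in wild type, against 0.18 and 0.21. The median standard error of a log2 fold change was 0.12 against 0.14. All 35 members were above background on all 8 arrays, whereas all genes include probes above it on as few as 4. These traits were not particular to the members. The 22 other core autophagy genes described below had a median size of 0.075. Their standard deviations were 0.13 and 0.14, and their standard error was 0.11. A threshold of 0.05 that is missed does not show equal levels, and the intervals give what the arrays allow.

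**Figure D1:**
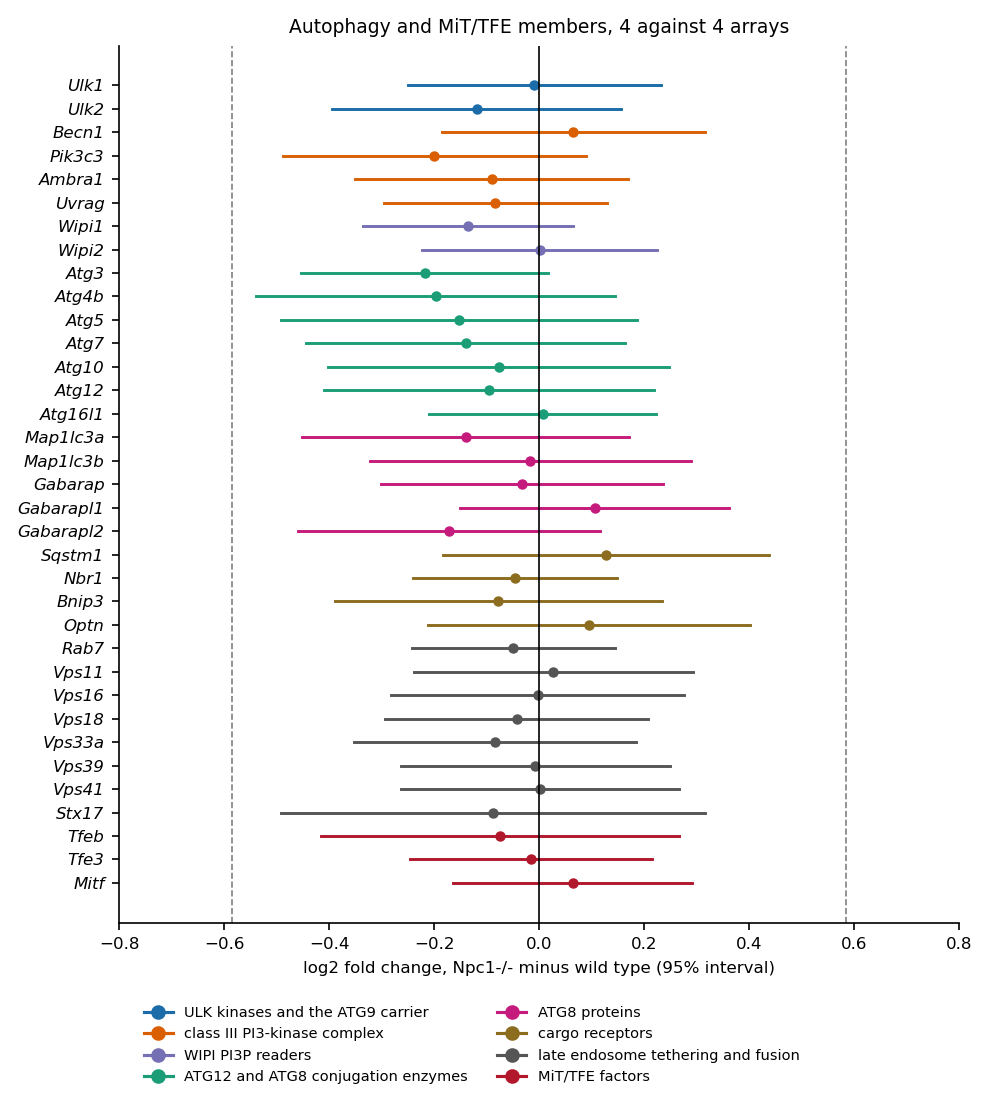
Log2 fold change (Npc1-/- minus wild type, x axis) of each of the 35 tested members (y axis), read by its brightest probe. Bars are the 95% interval from limma over 4 arrays per genotype, coloured by role, and dashed lines stand at a 1.5-fold change. All intervals include 0 and all lie between the dashed lines, with Atg3 (-0.22) lowest and Sqstm1 (0.13) highest.

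The mutated gene was read first as a check of the labels. The Npc1 probe read -2.53, -2.44, -2.32 and -2.60 on the Npc1-/- arrays and -0.52, -0.40, -0.64 and -0.37 on the wild-type arrays, a difference of -1.99 ± 0.10 (SE, limma adjusted p = 0.00045), with groups that do not overlap. These and all further levels are log2 processed signals after subtraction of the array's own 75th percentile, and they are listed in the order of replicates 1 to 4. Whether the probe lies within the part of Npc1 that the mutation alters was not examined. Between 22182 and 28137 of the 41174 probes were well above background on an array, fewest on wild-type replicate 2, and arrays correlated at 0.969 to 0.994 over genes. The array number, 4 per genotype, limits the precision.

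The wild-type array numbered 3 stood apart for the members. Measured from each gene's mean over the 8 arrays, the members' median was 0.006, -0.036, -0.048 and 0.003 on the Npc1-/- arrays and -0.045, -0.043, 0.148 and 0.073 on the wild-type arrays. Wild-type replicate 3 was thus highest, and for 16 of the 35 members (45.7%) it gave the highest signal of all 8 arrays, which it did for 30.8% of all genes. Purkinje cell markers were highest on the same array, with a median deviation of 0.486 against -0.167 to 0.089 on the other wild-type arrays, and 7 of those 8 markers peaked there. Granule cell (0.201) and astrocyte (0.132) markers were also highest on it. So were the lists of other pathway genes and TFEB targets read below, at 0.138 to 0.190. Markers of microglia, oligodendrocytes, choroid plexus and endothelium were not. The part of any cell type in the members' levels was not tested.

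With all arrays, 26 of the 35 tested members lay below 0 and 9 above, with a median log2 fold change of -0.05, while 53.4% of all genes lay below 0 with a median of -0.02. Among genes with probes above background on all 8 arrays, a filter that keeps all 35 members, 59.5% lay below 0 with a median of -0.04. Without wild-type replicate 3, 19 members lay below 0, the members' median was -0.02 and that of all genes -0.01. Within the 3 slides that hold both genotypes, the members' median difference was -0.19 on the slide that carries wild-type replicate 3, and 0.04 and -0.01 on the other two. The lean to lower values in Npc1-/- mice was smaller without that array.

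**Figure D2:**
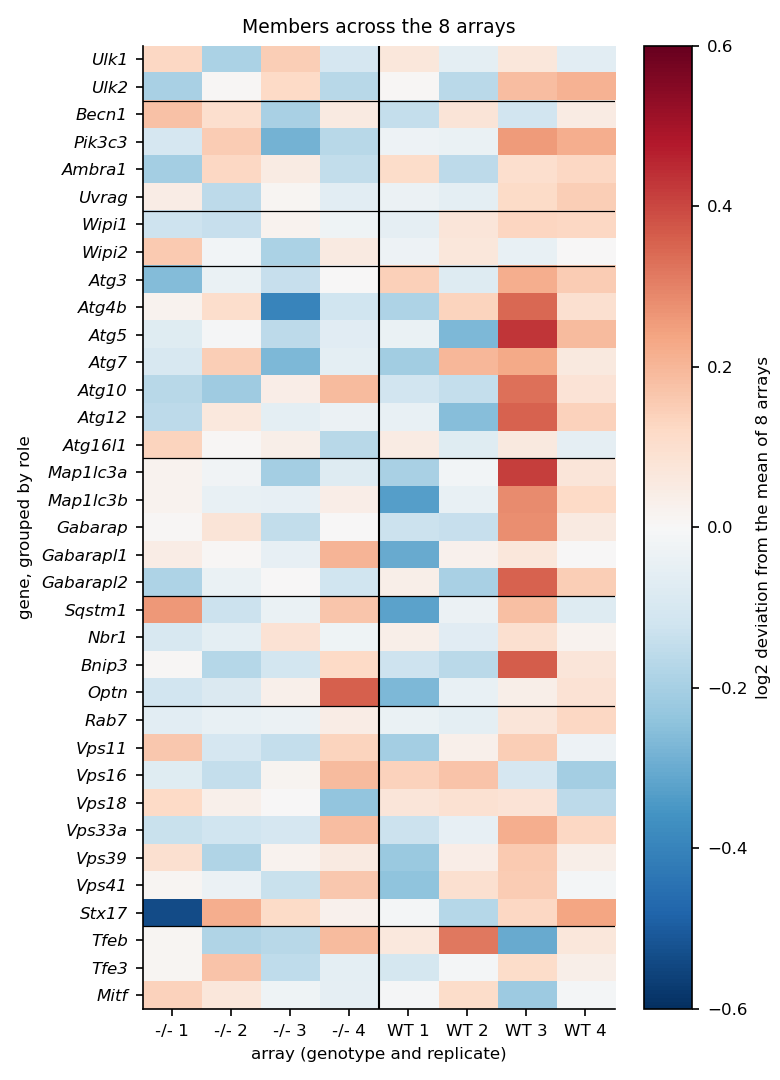
Log2 deviation of each tested member (rows, grouped by role and separated by lines) from its mean over the 8 arrays (columns, Npc1-/- at left and wild type, WT, at right of the thick line). Most conjugation enzymes and ATG8 genes are at their highest on WT 3, and no row separates the genotypes.

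The kinases that start autophagy showed small differences. Ulk1, whose product is phosphorylated by mTORC1 and AMPK, had a log2 fold change of -0.01, and its relative Ulk2 one of -0.12. Without wild-type replicate 3 these were 0.01 and -0.08.

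In the class III PI3-kinase complex, which makes PI3P at the forming membrane, 3 of 4 tested members lay below 0. Pik3c3, the catalytic subunit VPS34, read -0.33, -0.08, -0.52 and -0.40 on the Npc1-/- arrays and -0.26, -0.27, 0.02 and -0.02 on the wild-type arrays. Npc1-/- replicate 2 lay among the wild-type values, so the groups overlapped. The difference was -0.20 ± 0.13 (SE, limma adjusted p = 0.752), and -0.15 without wild-type replicate 3. Becn1, the scaffold Beclin 1, had a log2 fold change of 0.07, Ambra1, a Beclin 1 partner, one of -0.09, and Uvrag, the subunit of the later endosomal form of the complex, one of -0.08.

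The PI3P reader Wipi1 read 0.27, 0.26, 0.42 and 0.37 in Npc1-/- and 0.34, 0.47, 0.52 and 0.52 in wild type. Wild-type replicate 1 lay below the upper 2 mutant arrays. Its log2 fold change of -0.14 ± 0.09 (SE) had a limma adjusted p of 0.752. Wipi2, which recruits the ATG16L1 complex, differed by less than 0.01 on the log2 scale.

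The conjugation enzymes had a median log2 fold change of -0.14 over 7 genes, 6 of them below 0. It was -0.04, with 4 below 0, without wild-type replicate 3. Their median deviation on wild-type replicate 3 was 0.332, against -0.076 to 0.098 on the other wild-type arrays and -0.138 to 0.008 on the Npc1-/- arrays. Atg3, the E2-like enzyme that transfers ATG8 to lipid, read 1.87, 2.09, 1.99 and 2.13 in Npc1-/- and 2.27, 2.05, 2.35 and 2.28 in wild type. Wild-type replicate 2 fell within the mutant range, and the other wild-type arrays lay above all mutant arrays. The log2 fold change of -0.22 ± 0.10 (SE) had the lowest adjusted p of the members in limma, 0.729, and it was -0.18 without wild-type replicate 3.

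Atg4b, the protease that primes ATG8 proteins, read -0.31, -0.23, -0.73 and -0.45 in Npc1-/- and -0.52, -0.20, 0.01 and -0.23 in wild type. Atg7, the E1-like enzyme of both conjugation systems, read -2.20, -1.96, -2.38 and -2.17 in Npc1-/- and -2.32, -1.91, -1.88 and -2.05 in wild type. In Atg5, joined to ATG12 in the E3-like complex, the mutant arrays were close, at 0.13, 0.20, 0.04 and 0.13, and the wild-type arrays spread from -0.07 (replicate 2) over 0.16 (replicate 1) and 0.39 (replicate 4) to 0.63 (replicate 3). Genotypes overlapped for these 3 genes. Their log2 fold changes were -0.20 for Atg4b, -0.14 for Atg7 and -0.15 for Atg5, with limma adjusted p-values of 0.752, 0.762 and 0.764, and without wild-type replicate 3 they were -0.11, -0.09 and -0.04.

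The remaining enzymes lay nearer 0. Atg10, the E2-like enzyme for ATG12, had a log2 fold change of -0.08, Atg12 itself one of -0.10, and Atg16l1, which places the complex on the membrane, one of 0.01. Atg10 and Atg12 were at 0.02 and 0.01 when wild-type replicate 3 was left out.

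The ATG8 genes were not separated by genotype, with a median log2 fold change of -0.03 over 5 genes (0.06 without wild-type replicate 3) and 0 past the threshold in limma. Gabarapl2 (GATE-16) read 4.16, 4.31, 4.35 and 4.23 in Npc1-/- and 4.38, 4.16, 4.70 and 4.50 in wild type. Map1lc3a (LC3A) read 3.10, 3.06, 2.88 and 3.00 against 2.88, 3.06, 3.49 and 3.15. For both genes wild-type replicate 3 was highest, and at least 1 wild-type array fell within or below the mutant range. The differences were -0.17 ± 0.13 (SE) and -0.14 ± 0.14 (SE), with limma adjusted p-values of 0.752 and 0.764, and they were -0.08 and -0.02 without that array. Map1lc3b, the LC3B widely used as a marker of autophagosomes, had a log2 fold change of -0.02, Gabarap one of -0.03 and Gabarapl1 one of 0.11.

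Among the cargo receptors, 2 of 4 lay above 0 and 2 below. Sqstm1, which encodes p62, read 6.21, 5.82, 5.91 and 6.11 in Npc1-/- and 5.63, 5.91, 6.13 and 5.87 in wild type, so that the lowest array was wild type, the highest was mutant and the ranges overlapped between 5.82 and 6.13. Its log2 fold change was 0.13 ± 0.14 (SE, limma adjusted p = 0.777), with a 95% interval from a 0.881-fold to a 1.36-fold level, and it was 0.21 without wild-type replicate 3. Optn, a receptor of damaged mitochondria and bacteria, had a log2 fold change of 0.10, Nbr1, a partner of p62, one of -0.04, and Bnip3, a mitochondrial receptor, one of -0.08. These are RNA measurements. The p62 and LC3 proteins, which are turned over by autophagy itself, were not measured.

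The genes of late endosome tethering and fusion lay near 0, with a median size of change, sign ignored, of 0.035 over 8 genes and of 0.040 without wild-type replicate 3. Rab7, the late endosomal GTPase, had a log2 fold change of -0.05. The 6 HOPS subunits ranged from -0.08 (Vps33a) and -0.04 (Vps18) to 0.03 (Vps11), with Vps16, Vps39 and Vps41 within 0.01 of 0. Stx17, the SNARE of the autophagosome, had a log2 fold change of -0.09 and the widest standard error of the members, 0.18, with Npc1-/- replicate 1 at -2.03 and the other mutant arrays between -1.46 and -1.27.

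**Figure D3:**
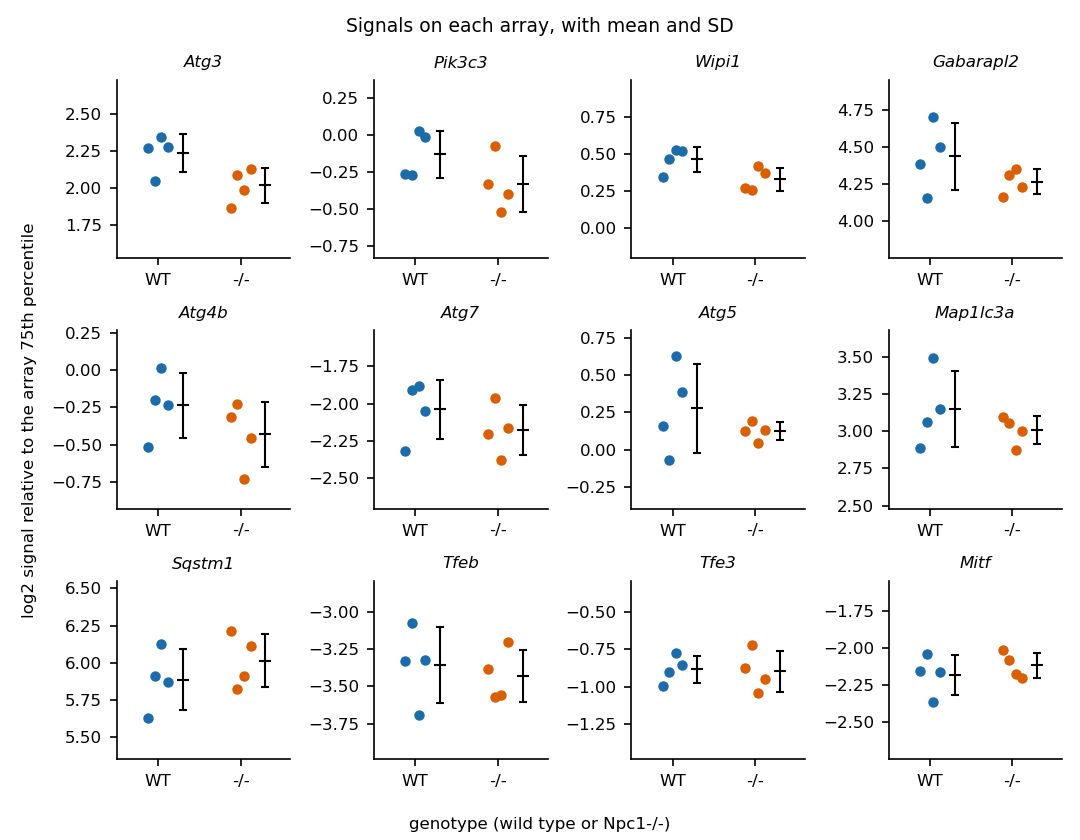
Log2 signal with the array's 75th percentile subtracted (y axis; each panel spans the same number of log2 units around its own mean) of 12 members on the 4 wild-type (WT) and 4 Npc1-/- arrays; bars are mean and SD. The genotypes overlap in every panel, and the wild-type arrays of Atg5 spread from -0.07 to 0.63 while its mutant arrays lie between 0.04 and 0.20.

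The transcription factors of the family were not changed past the threshold either. Tfeb read -3.38, -3.57, -3.56 and -3.20 in Npc1-/- and -3.33, -3.07, -3.69 and -3.32 in wild type, so that wild-type arrays gave both the highest and the lowest value. Tfe3 read -0.88, -0.72, -1.04 and -0.95 against -0.99, -0.90, -0.78 and -0.86. Mitf read -2.01, -2.08, -2.17 and -2.20 against -2.16, -2.04, -2.36 and -2.16. The log2 fold changes were -0.07 ± 0.15, -0.01 ± 0.10 and 0.06 ± 0.10 (SE), with limma adjusted p-values of 0.877, 0.968 and 0.842. Wild-type replicate 3 was the highest wild-type array for 22 of the 35 members, but for Tfeb and Mitf it was the lowest, and without it their log2 fold changes were -0.19 and 0.00. The family acts mainly through where its proteins are and how they are phosphorylated, which arrays do not measure. Tfec, the fourth member of the family, was not well above background on enough arrays to be tested.

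Genes whose products act with the members were read from lists of the pathway. Among 22 other core autophagy genes, all tested, 0 passed the threshold in limma and 19 lay below 0, with a median of -0.07, and 2 had an unadjusted p under 0.05. Those 2 were Atg4d, another ATG8 protease, at -0.29 (adjusted p = 0.542), and Vmp1, a scramblase of the endoplasmic reticulum, at -0.25 (adjusted p = 0.669). Of 15 other receptors 0 passed and 1 had an unadjusted p under 0.05, with a median of -0.06. Bcl2l13, a mitochondrial receptor, was at -0.17.

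The lists of fusion and of upstream control gave counts of 0 as well. Of 20 other fusion genes 0 passed in limma, 0 had an unadjusted p under 0.05 and 17 lay below 0, with a median of -0.06. Plekhm1, an adaptor of RAB7 and HOPS, stood at -0.20 with groups that do not overlap (adjusted p = 0.713) and its relative Plekhm2 at -0.25. Of 27 tested regulators among 28 in the mTORC1, AMPK and Rag list, 0 passed and 0 had an unadjusted p under 0.05, with a median of -0.06. Ppp3cb, a catalytic subunit of the calcineurin that dephosphorylates TFEB, stood at -0.32 and Tsc1, an inhibitor of mTORC1, at 0.16, the latter with groups that do not overlap, and both had adjusted p-values of 0.752. Without wild-type replicate 3 the medians of these 4 lists were -0.06 for the core genes, -0.01 for the receptors, -0.02 for the fusion genes and 0.00 for the regulators.

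Lysosomal genes known as TFEB targets leaned the other way, with 17 of 27 tested genes above 0 and a median of 0.07, and 0 passed the threshold in limma, while 3 had an unadjusted p under 0.05. With each array scaled to its median signal, which lowers all genes alike, the list's median was -0.04 and that of all genes -0.12.

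Gpnmb, a glycoprotein gene known as a target of MITF and TFE3, was the only gene past the threshold in the list of other MiT/TFE-linked genes, where 7 of 8 were tested. It read -1.98, -1.66, -1.78 and -1.68 in Npc1-/- and was well above background on 0 of the 4 wild-type arrays, which put it at least 12.2-fold higher in Npc1-/-. Its limma adjusted p was 0.00045, but it entered the test through its Npc1-/- arrays alone. That p-value rests on wild-type signals that were not well above background. The bound sets the mutant mean against the mean over the wild-type arrays of the lowest signal called well above background, or of the probe's own signal where that was higher. Gpnmb is also a gene of activated microglia. Without any of the Npc1-/- arrays in turn it was well above background on too few arrays to be tested. The list's median was -0.02.

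Markers of microglia rose in the same Npc1-/- arrays in which no member passed the threshold. Of 13 microglia markers 6 rose past the threshold and all 13 lay above 0, with a median log2 fold change of 0.90. They were uneven. Tmem119 stood at 0.14 and P2ry12 at 0.25 (limma adjusted p = 0.811 and 0.752), and Cd68 at 2.08 (0.00045). The list's median deviation was 0.349 to 0.762 on the Npc1-/- arrays and -0.806 to -0.266 on the wild-type arrays. Of 10 markers of activated microglia and macrophages, Gpnmb among them, 8 rose past the threshold. Of those called, Gpnmb was above background on 0 wild-type arrays and Itgax on 1. Their p-values thus rest on wild-type signals that were mostly not well above background. The others called were above it on 3 or 4 wild-type arrays. The median of the 10 was 2.33, or 2.27 with the 3 genes that were above background on no wild-type array at their lower bound. The part of microglia in the values of Gpnmb was not tested. In whole tissue, more cells of a type and more RNA per cell cannot be told apart.

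No tested marker of the other cell types passed the threshold. All 12 oligodendrocyte markers lay below 0, with a median of -0.58, and 0 passed in limma, though 10 had an unadjusted p under 0.05. Groups did not overlap for 9 of the 12, against 4.92% of all genes. The list's median deviation was -0.424 to -0.047 on the Npc1-/- arrays and 0.043 to 0.575 on the wild-type arrays. Purkinje cell markers had a median of -0.22, with 7 of 8 below 0, which was -0.12 without wild-type replicate 3. Granule cell markers had one of -0.25, with all 8 below 0. Astrocyte and endothelial markers were at 0.05 and 0.04. Of the 9 astrocyte markers, 6 lay above 0 and 3 below. Gfap, at 1.08, narrowly missed the threshold (limma adjusted p = 0.0516), and the others ranged from -0.15 to 0.20. The median of the 7 tested choroid plexus markers was 0.05, with Npc1-/- replicate 3 lowest at a deviation of -1.50 and Npc1-/- replicate 2 highest at 0.90. Of 5 forebrain markers, 2 were tested, Neurod6 at -0.74 and Emx1 at -0.07. Their median deviation was 1.025 on wild-type replicate 2 and -0.469 to 0.040 on the other arrays. Whether this bears on the members' levels on that array was not tested. All 8 granule cell and all 8 Purkinje cell markers, which define the labelled tissue, were well above background on the 8 arrays.

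**Figure D4:**
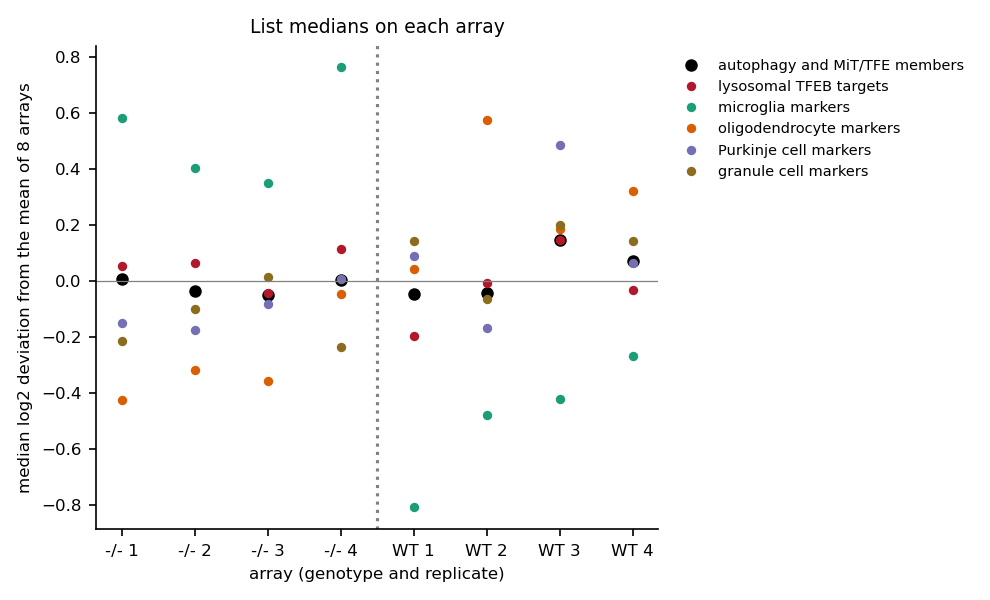
Median log2 deviation from each gene's mean over the 8 arrays (y axis) of the 35 tested members and of 5 gene lists, on each array (x axis; Npc1-/- left, wild type, WT, right of the dotted line). Microglia and oligodendrocyte markers separate the genotypes, whereas the members stay between -0.048 and 0.148 and are highest on WT 3.

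Of the 71 member probes, 63 passed the background filter (4 or more of the 8 arrays), 60 of them on all 8, and 4 passed on none. Over these probes, 0 of 63 passed in limma (adjusted over 27164 probes, 142 called, 0.523%), 1 had an unadjusted p under 0.05 (6.51% of all probes), and 1 had groups that do not overlap (4.35%). That probe was a second, dimmer probe of Gabarapl2, at -2.56, -2.42, -2.44 and -2.52 in Npc1-/- and -2.29, -2.42, -2.06 and -2.14 in wild type. Its difference of -0.26 had an unadjusted p of 0.0375 and an adjusted p of 0.723, and wild-type replicate 2 lay within 0.01 of the nearest mutant array. It pointed the same way as the brighter Gabarapl2 probe.

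The probes of 21 members could be set against each other, and those of 10 members differed in sign. In Atg7, Ambra1 and Ulk2, with gaps of 0.75, 0.69 and 0.58 between their log2 fold changes, the highest probe was designed on a full-length cDNA record (AK) instead of a RefSeq mRNA. Vps18, with RefSeq probes only, had a gap of 0.57, from -0.36 to 0.20. Its probe at -0.36 was near background, well above it on only 2 Npc1-/- and 3 wild-type arrays. Without wild-type replicate 3 the gap of Vps18 was the widest of the members, at 0.55, and those of the other 3 genes were 0.32, 0.32 and 0.44. The probes of the 3 members with a cDNA probe at the top are shown by the first 30 of their 60 bases, with the mm7 position of the whole probe as the files give it.
Ambra1, RefSeq probe, chr2:91769431-91769490: ttagtatgaaaatgtgatttcctttctgtt
Ambra1, cDNA probe, chr2:91660980-91661039: agttggcctctgtttctgtagcagtggtga
Atg7, RefSeq probe, chr6:114802581-114802640: agtacgagcgagaaggattcaccttcctag
Atg7, cDNA probe, chr6:114711018-114711077: tacattctatcaggagattgaacgttcatg
Ulk2, RefSeq probe, chr11:61857897-61857956: ccagcagttaatttgaacgtttatgtatag
Ulk2, cDNA probe, chr11:61884991-61885050: ttatctgttgtgctgtatccttctcccaac
The probes of a gene thus lie far apart within it. Which exon, intron or UTR holds them was not examined, as no annotation of mm7 was used.

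Ambra1 stood at -0.09 with its RefSeq probe and 0.60 with the cDNA probe, Atg7 at -0.14 and 0.61, and Ulk2 at -0.12 and 0.46. The Atg7 cDNA probe was near background in wild type, well above it on 2 of the 4 wild-type arrays. On the cDNA probe, Ambra1 read -1.86, -2.13, -1.74 and -2.45 in Npc1-/- and -2.13, -1.82, -3.70 and -2.94 in wild type. Wild-type replicate 3 was lowest of the 8 arrays for these 3 cDNA probes, whereas it was highest for 16 of the 35 members. Without that array the 3 differences were 0.25, 0.24 and 0.21. None passed the test, with an unadjusted p of 0.157, 0.177 and 0.174.

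The split by probe design was not particular to the members. The 5 cDNA probes of members, which cover 4 genes, had a median difference of 0.46 (log2), with 4 above 0, and the 55 RefSeq probes of members one of -0.06, with 17 above 0. Over all kept probes, 66.7% of 4987 cDNA probes and 41.3% of 18141 RefSeq probes lay above 0, with medians of 0.15 and -0.03. The median deviation of the cDNA probes was -0.355 on wild-type replicate 3 and 0.238 on Npc1-/- replicate 3. Without wild-type replicate 3 their median log2 fold change was 0.05.

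**Figure D5:**
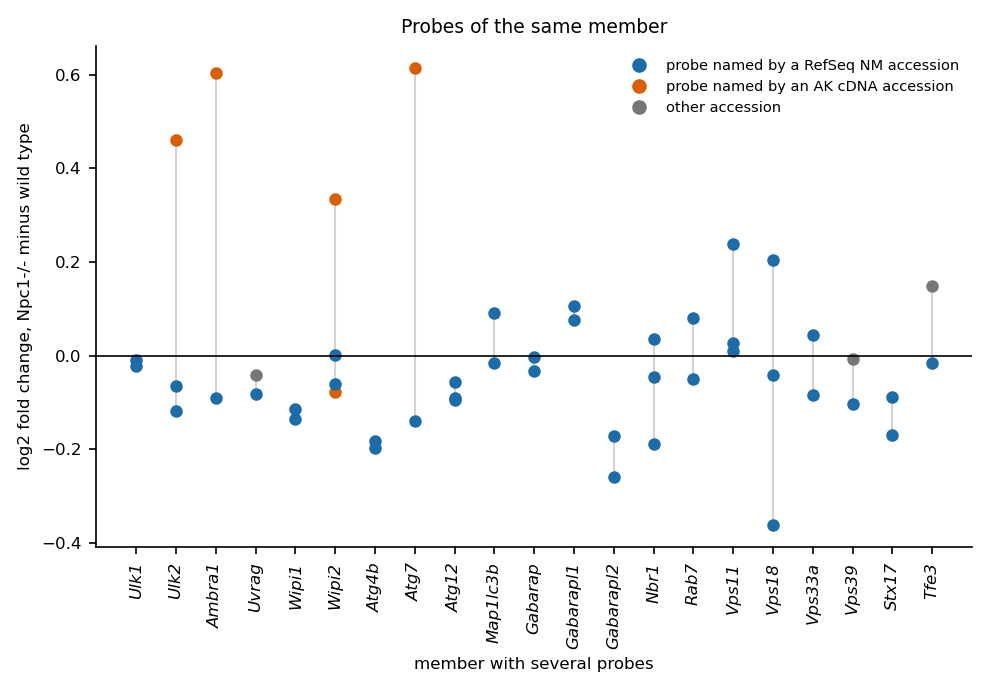
Log2 fold change (Npc1-/- minus wild type, y axis) of every kept probe of the 21 members with several probes (x axis), coloured by the kind of record that names the probe; grey lines join probes of a gene. The highest points, for Atg7 (0.61), Ambra1 (0.60), Ulk2 (0.46) and Wipi2 (0.33), are cDNA probes.

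The E-box letters were counted in the promoters of the members and of other genes. CACGTG, searched on both strands, was found in 6 of 30 member promoters (20%), those of Atg3, Atg5, Atg7, Vps16, Vps33a and Bnip3, against 8.09% of 27025 promoters and 11.4% of those of tested genes. The longer TCACGTG, which contains it, was in 4 of 30 (13.3%) against 4.29% of all and 6.69% of those of tested genes. GTCACGTG was in the same number, against 2.55% and 4.45%. In the promoters of the lysosomal targets, CACGTG was in 16 of 21 (76.2%) and TCACGTG in 15 (71.4%). These targets were listed from knowledge of TFEB binding, so their share is a description of that list.

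The 6 members with CACGTG all lay below 0, from -0.22 for Atg3 to less than 0.01 below 0 for Vps16, with a median of -0.11, and the 22 tested members without it had a median of -0.04. Leaving out wild-type replicate 3, 5 of the 6 lay below 0, with a median of -0.04, where that of all 35 tested members was -0.02. For the lysosomal targets, 16 with the letters had a median of 0.06 and 5 without it one of 0.08. Atg3, Atg5 and Atg7 are conjugation enzymes, and 5 of the 6 gave their highest signal on wild-type replicate 3. A promoter without these letters says only that they are not in this window.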

How the data were processed

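The intensity values are the authors' deposited scanner files, which the submitters' processing notes assign to Agilent Feature Extraction 9.5. Signals had been corrected for background inside each array without scaling across arrays, per the file headers, and further columns mark spots as well above background, saturated or outlying. From these, log2 processed signals were taken and each array's 75th percentile (every spot that is no control) was subtracted. Control spots were left out, 74 to 115 outlier spots per array were set to missing, and no other spot was saturated. Spots of a probe were averaged. A probe was kept if well above background (in at least 0.5 of its spots) on 4 or more of the 8 arrays, and the brightest probe stood for a gene. Probe positions in the files are in the mm7 build. RefSeq's GRCm38.p6 table updated the names of 22951 probes by accession, 6659 by symbol and 3109 by synonym, leaving 8455 as deposited.

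A linear model with genotype alone was fitted in limma 3.58.1 (R 4.3.3) by lmFit and eBayes, with two-sided tests, p-values adjusted by Benjamini and Hochberg over all genes and a threshold of 0.05. The fit was checked on simulated data. The members and lists were chosen with earlier results of these data known, so they carry no test of their own. Per-array values follow a rule: members past the threshold or without overlap, filled to 8 by the size of the moderated t. Tfeb, Tfe3, Mitf and Sqstm1 were added with their values known. Of a pathway list, genes past the threshold, or else the 2 with the largest moderated t, were named; some genes that this rule takes are not reported here. Alternatives were other scalings, background corrections, filters, probe rules, blocks, array weights and leaving out each array. The 4 slides were scanned on 2 different days, and both genotypes shared 3 of the slides.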

Additional observations from a re-analysis of the deposited data

Results flagged for a closer look

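Each group of 4 arrays was checked for an array far from the other 3, by its gap to the nearest one as a share of the group's range, against Dixon's 95% critical value. Of 70 groups (35 tested members in 2 genotypes), 3 passed, and chance alone gives about 1 in 20, or 3.5. Ambra1, the Beclin 1 partner, had a share of 0.918 in wild type, where replicate 2 read 0.879 and the others 1.139 to 1.162. Vps18, a HOPS subunit, had a share of 0.930 in wild type, where replicate 4 read 1.859 and the others 2.088 to 2.105. Vps33a, another HOPS subunit, had a share of 0.901 in Npc1-/-, where replicate 4 read 1.784 and the others 1.469 to 1.5. The 3 cases lie on 3 different arrays, and none is wild-type replicate 3.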

How the results depend on the processing

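Members past the threshold stayed at 0 in every alternative run, and the lowest limma adjusted p over 630 member fits was 0.232 (Atg3, array weights). Leaving aside median scaling, which lowers all genes alike, 82 of 595 member fits, in 23 genes, turned a member's sign, and 12 genes kept theirs. The 595 include fits with no filter, the all-array filter and the replicate block. Those return each member's main estimate, so no sign could turn in them. Counts of unadjusted p under 0.05 reached 2 with array weights (Atg3, Wipi1) and without wild-type replicate 2 (Atg3, Gabarapl2), and 1 without Npc1-/- replicate 2 (Pik3c3). Those last 3 genes, and Wipi1 without wild-type replicate 1, then had groups that do not overlap.

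Median scaling moved the median of all genes from -0.02 to -0.12 and put 70% of all genes and 34 members below 0, against 18 members with normexp and quantile normalization. Under it the medians were -0.16 for the members, -0.17 for the mTORC1, AMPK and Rag regulators, -0.13 for the MiT/TFE-linked genes, -0.16 for the receptors, -0.18 for the core genes and -0.17 for the fusion genes. Genes past the threshold over all genes numbered 88 with probes above background on all 8 arrays, 309 with array weights, 75 with median scaling, 59 with no filter, 87 with quantile-normalized processed signals and 38 with the slide as a block. Leaving out each array in turn gave 55 to 148.

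The lysosomal list had 1 gene past the threshold with the all-array filter, 1 with array weights, 1 with normexp and quantile and 1 with quantile-normalized signals. The MiT/TFE-linked list had 0 with the all-array filter and 0 to 1 without each array, since Gpnmb is then not tested whenever an Npc1-/- array is left out. Same-numbered arrays of the 2 genotypes correlated from -0.445 to 0.201 in their deviations from the group means, so the numbers were not taken as pairs. With the replicate block 27 genes passed, and 0 members. Of the values of single members, roles and other counts under these alternatives, 37 were counted as moved and 863 were not. A median counted as moved past the spread of the arrays, and a count past 1.5 times. A single member counted as moved only if its sign turned and the shift passed that spread. Larger shifts that kept the sign are thus among the 863. Signal over background limits Pik3r4 and Tfec, which have no value.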
